A study of Mus musculus with 12 samples.

Results

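The G2/M and mitosis genes described here are 42 protein-coding genes used in the last stages of the cell cycle, from mitotic entry to the separation of daughter cells. They were chosen by gene symbol from general knowledge of the cell cycle, with earlier results of these data known. Each symbol matched 1 of the 56748 Ensembl genes listed in the count matrix. All 42 passed the filter on low counts that left 15033 genes for testing. The libraries came from bulk RNA sequencing of bone marrow-derived macrophages (BMDM) of C57BL/6J mice, grown in M-CSF at 20 ng/mL and turned toward an M2-like state by IL4 at 10 ng/mL for 48 hours, treatments that all conditions had in common. These 72-hour conditions followed, with 3 libraries each: unsupplemented medium (control), eGFP supernatant, Ifnb1eGFP supernatant and recombinant IFNβ (rIFNβ). Both supernatants came from YUMM5.2, a mouse melanoma line, after 72 hours of doxycycline (Dox) at 1 µg/mL, in which 1 derivative makes IFNβ and eGFP and the other serves as its eGFP control. Dilution brought IFNβ in the Ifnb1eGFP supernatant to 1500 pg/mL, rIFNβ was set to the same concentration, and the eGFP supernatant was diluted in the same proportion. The IFNβ effect can therefore be read from a pair of comparisons that share no library, Ifnb1eGFP against eGFP supernatant and rIFNβ against control. Cultures were not sorted by cell cycle stage, so in these bulk values fewer cells in G2 or mitosis and less RNA per such cell cannot be told apart.

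A cell enters mitosis when CDK1 bound to cyclin A or cyclin B is activated by CDC25 phosphatases, and Aurora and Polo-like kinases then drive centrosome maturation, spindle assembly and chromosome alignment. The spindle checkpoint holds back the anaphase-promoting complex until every kinetochore is attached, after which securin and cyclin B are destroyed and separase cuts the cohesin that joins sister chromatids. Most of these genes are transcribed late in the cycle through the MuvB complex with B-MYB or FOXM1, which acts at CHR elements and, beside them, at CCAAT boxes bound by NF-Y. M-CSF keeps cultured BMDM in cycle, and type I interferon is known for slowing the growth of many cell types.

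Most promoters of these genes that could be read hold such letters. Of the 42 genes, 35 had an entry in the RefSeq promoter table (GRCm38.p6, 250 bases before to 50 after the start), and the other 7 were Aurkb, Ccna2, Cdc25c, Dlgap5, Kif20a, Spc24 and Tpx2. The CHR letters TTTGAA or TTCGAA, on either strand, were in 27 of the 35 (77.1%) and in 19.2% of all 32851 promoters in the table. For these and the other letters, a gene counted if any of its entries held them, while all promoters were counted by entry. The letters CCAAT, on either strand, were in 27 of the 35 and in 37.4% of all promoters, and 24 genes held both. The E2F core letters TTGGCGC or TTCGCGC or TTCCCGC or TTGGCGG, which can overlap a CCAAT box read on the other strand, were in 20% of the 35 and in 10.2% of all promoters. Below are the 150 bases before the start site of a gene lower after IFNβ in both comparisons (Ube2c, chr2:164769779-164769928, plus strand), of another such gene (Mki67, chr7:135716380-135716529, minus strand), of a gene higher in both (Kif11, chr19:37376232-37376381, plus strand), of the kinase at the centre of the pathway (Cdk1, chr10:69352913-69353062, minus strand) and of the gene with the largest rise among the 42 (Pttg1, chr11:43425982-43426131, minus strand). Capitals mark CHR and CCAAT letters on either strand, and they show that genes that fell and genes that rose can carry the same pair of letters.
Ube2c: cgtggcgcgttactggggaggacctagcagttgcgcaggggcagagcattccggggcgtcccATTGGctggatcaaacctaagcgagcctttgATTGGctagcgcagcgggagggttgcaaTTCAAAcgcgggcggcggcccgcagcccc
Mki67: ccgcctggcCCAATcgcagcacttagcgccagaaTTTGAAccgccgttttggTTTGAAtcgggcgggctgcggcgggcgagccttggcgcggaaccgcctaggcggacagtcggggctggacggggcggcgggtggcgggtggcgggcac
Kif11: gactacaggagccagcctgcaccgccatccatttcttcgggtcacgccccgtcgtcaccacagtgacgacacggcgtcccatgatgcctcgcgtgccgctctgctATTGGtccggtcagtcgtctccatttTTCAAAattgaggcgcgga
Cdk1: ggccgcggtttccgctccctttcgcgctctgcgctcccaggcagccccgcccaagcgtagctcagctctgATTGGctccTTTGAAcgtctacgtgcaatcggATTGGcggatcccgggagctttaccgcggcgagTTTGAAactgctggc
Pttg1: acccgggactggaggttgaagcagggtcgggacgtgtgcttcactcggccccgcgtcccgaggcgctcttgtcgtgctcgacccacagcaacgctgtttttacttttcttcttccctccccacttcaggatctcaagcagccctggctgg
Among the 10 genes lower in both comparisons, 9 had an entry and 8 of these held CHR letters. The letters were also in 7 of the 10 entries of genes that fell between the supernatants alone, in 5 of the 6 of genes that rose with rIFNβ alone and in 6 of the 7 of genes called in neither. Among the 4 genes higher in both, 3 had an entry and 1, Kif11, held them, and none of the 4 sets of letters searched was in the Pttg1 entry. The fourth set, 2 GAAA words with 2 bases between them as in interferon-response elements, on either strand, was searched after the values were seen and was in 2 entries, Bub1b and Spc25 (5.71%), and in 3.44% of all promoters.

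Library totals ran from 31526034 to 45348457 counts, and a gene of the list had 23 to 2465 counts in a library. All 8 macrophage markers had counts in every library. Their summed level was 14396 to 15597 CPM (counts per 1000000 on normalized library sizes) in control and 18252 to 18802 in eGFP supernatant. It was 10502 to 10720 in Ifnb1eGFP supernatant and 9818 to 9950 in rIFNβ. Much of the sum was Lyz2, with means of 9415, 12396, 4111 and 3472 CPM in the same order. The 8 markers did not fall as a set. Their log2 fold changes ran from -1.99 to 3.85 (median 0.13) between the supernatants and from -2.17 to 4.46 (median 0.14) with rIFNβ. The part of these shifts in the results was not tested. The summed level of 8 interferon-response genes was 59.8 to 102 CPM in control and 8528 to 9569 in the 6 IFNβ libraries. In eGFP supernatant it was 123, 616 and 69.2 CPM in replicates 1, 2 and 3, so replicate 2 stood apart, and called counts of the supernatant comparison are given with and without it. The labels and methods do not tie each library to a mouse or culture, and p-values measure the spread between these libraries, which may be technical.

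Measured per kilobase of the canonical transcript, the G2/M and mitosis genes were expressed at a low to middling level. Their median level stood at percentile 35.5 of the genes tested, and 35 of the 42 lay below the median gene. The highest level belonged to Pttg1, which encodes securin, at percentile 87.5, followed by the spindle factor Tpx2 at 63.1, the centromeric histone gene Cenpa at 62.9 and the topoisomerase gene Top2a at 60.2. Cdk1 stood at percentile 55.0. The lowest levels were those of Cdc25c, at percentile 19.2, and of Cenpf, a large kinetochore protein, at 15.8. Summed over the 42 genes, the level was 327 to 373 CPM in control, 368 to 440 in eGFP supernatant, 381 to 406 in Ifnb1eGFP supernatant and 398 to 451 in rIFNβ, so the ranges of all conditions except control overlapped, and control and eGFP supernatant overlapped as well. The sum hides opposite movements, because Pttg1 and Tpx2 rose while many others fell. Without these 2 genes, left out after their values were seen, the sum was 302 to 344 CPM in control, 340 to 409 in eGFP supernatant, 288 to 319 in Ifnb1eGFP supernatant and 289 to 356 in rIFNβ.

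**Figure D1:**
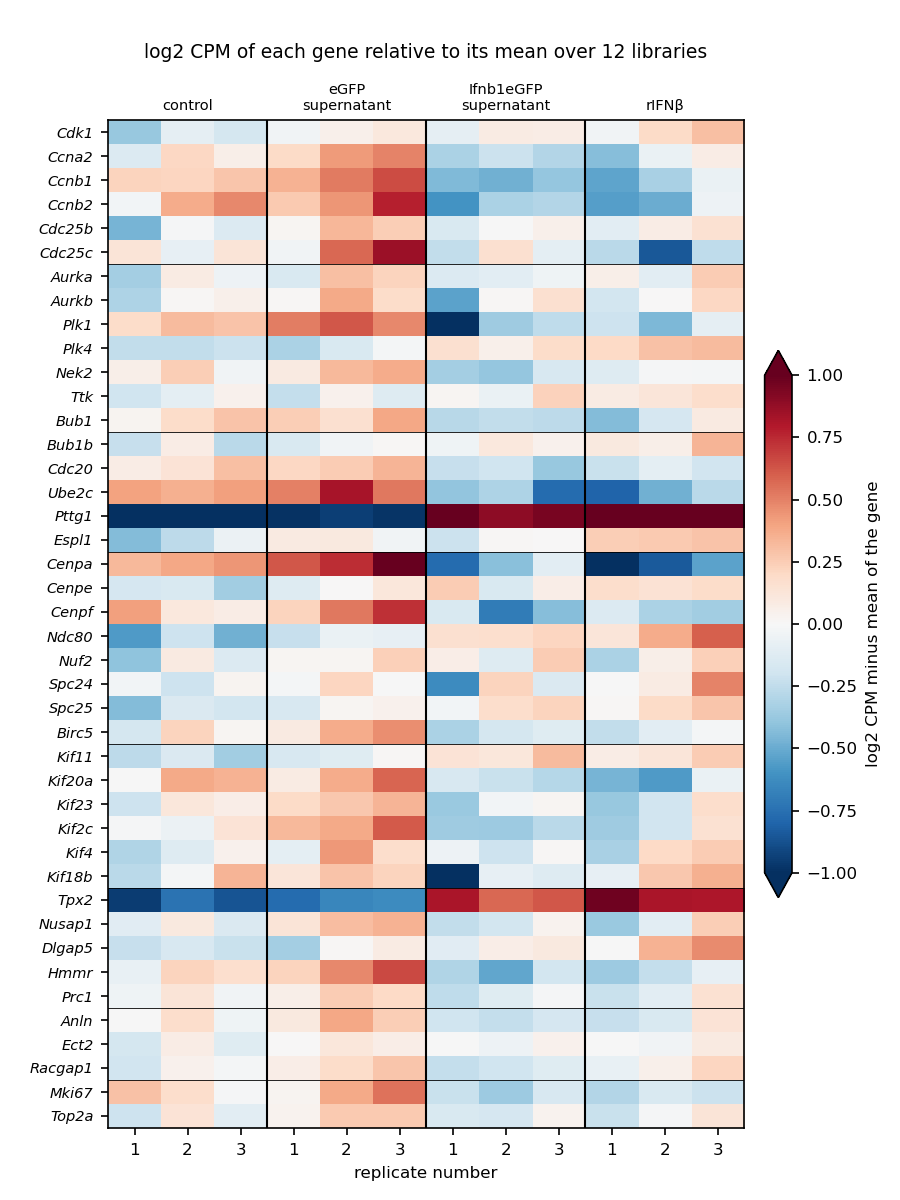
Level of each of the 42 genes in each of the 12 libraries, as log2 CPM minus the gene's mean over the libraries (red above, blue below, colours end at 1 and -1), with genes ordered by role and libraries by condition and replicate number. Pttg1 and Tpx2 are blue in control and eGFP supernatant and red in both IFNβ conditions, Ccnb1, Plk1, Ube2c and Cenpa show the opposite, and many genes are lowest in replicate 1 of a condition.

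Relative to eGFP supernatant, Ifnb1eGFP supernatant lowered most of the G2/M and mitosis genes that changed. That reference itself had a log2 fold change above 0 over control for 41 of the 42 genes (51% of all genes), though 0 were called (0.299% of all genes). Against eGFP supernatant, 21 of the 42 fell and 4 rose at an adjusted p of at most 0.05 (quasi-likelihood test of edgeR, adjusted by Benjamini-Hochberg across the genes tested), where 25% of all genes tested fell and 30.1% rose (55.1% called in all). The median log2 fold change was -0.33 over the 42 genes and 0.03 over all genes tested. The groups did not overlap for 21 genes that were lower and 5 that were higher in Ifnb1eGFP supernatant, a rule met by 26.6% and 32.4% of all genes. Without eGFP supernatant replicate 2, 17 fell and 4 rose, and the calls lost were those of Top2a, Nusap1, Kif23 and Prc1. Calls were also fewer over all genes, as 3327 of 15320 genes tested fell and 4012 rose in that fit. In the main fit 3761 of 15033 fell and 4520 rose.

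rIFNβ gave a more even split. Against control, 10 of the 42 genes fell and 11 rose (edgeR's quasi-likelihood test, Benjamini-Hochberg adjusted), where 24.6% of all genes tested fell and 30.7% rose (55.3% called in all), so the counts stood near the background in both directions. The median log2 fold change was 0.06 over the 42 genes and 0.04 over all genes. The median over the 42 ran from -0.04 to 0.12 with single libraries left out, and was -0.02 without control replicate 1 and -0.04 without rIFNβ replicate 3, so its sign was not settled. The groups did not overlap for 11 genes that were lower and 11 that were higher, and 29.7% and 36.4% of all genes met that rule. The count of genes that fell was 6 without control replicate 3, 5 without rIFNβ replicate 1 and 6 without rIFNβ replicate 2, while the count that rose was 10 or 11 with any library left out. Over all genes tested, 3705 fell in the main fit and 3351, 3288 and 3400 in those fits, in that order.

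The 42 genes fall into 5 groups by their calls in the 2 comparisons. Of these, 14 changed the same way in both, where Plk4, Pttg1, Kif11 and Tpx2 rose and Ccnb1, Ccnb2, Plk1, Bub1, Cdc20, Ube2c, Cenpa, Cenpf, Kif20a and Mki67 fell. A further 11 fell past the threshold in the supernatant comparison and not with rIFNβ, namely Ccna2, Nek2, Birc5, Kif23, Kif2c, Nusap1, Hmmr, Prc1, Anln, Racgap1 and Top2a. Another 7 rose past the threshold with rIFNβ and not between the supernatants, namely Cdk1, Bub1b, Espl1, Cenpe, Ndc80, Spc25 and Dlgap5. Cdc25b, Cdc25c, Aurka, Aurkb, Ttk, Nuf2, Spc24, Kif4, Kif18b and Ect2 passed in neither. No gene moved in opposite directions past the threshold in this fit. In the 2 comparisons 55.1% and 55.3% of all genes tested were called. The same split was not counted over all genes, so the group sizes are not shown to be particular to this list. The log2 fold changes of the 2 comparisons had a Pearson correlation of 0.96 and a Spearman correlation of 0.94 across the 42 genes, against 0.90 and 0.89 across all genes tested. Without Pttg1 and Tpx2 the Pearson correlation across the other 40 genes was 0.92. These correlations are across genes, which are not independent replicates, and the fits share 1 estimate of the spread.

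**Figure D2:**
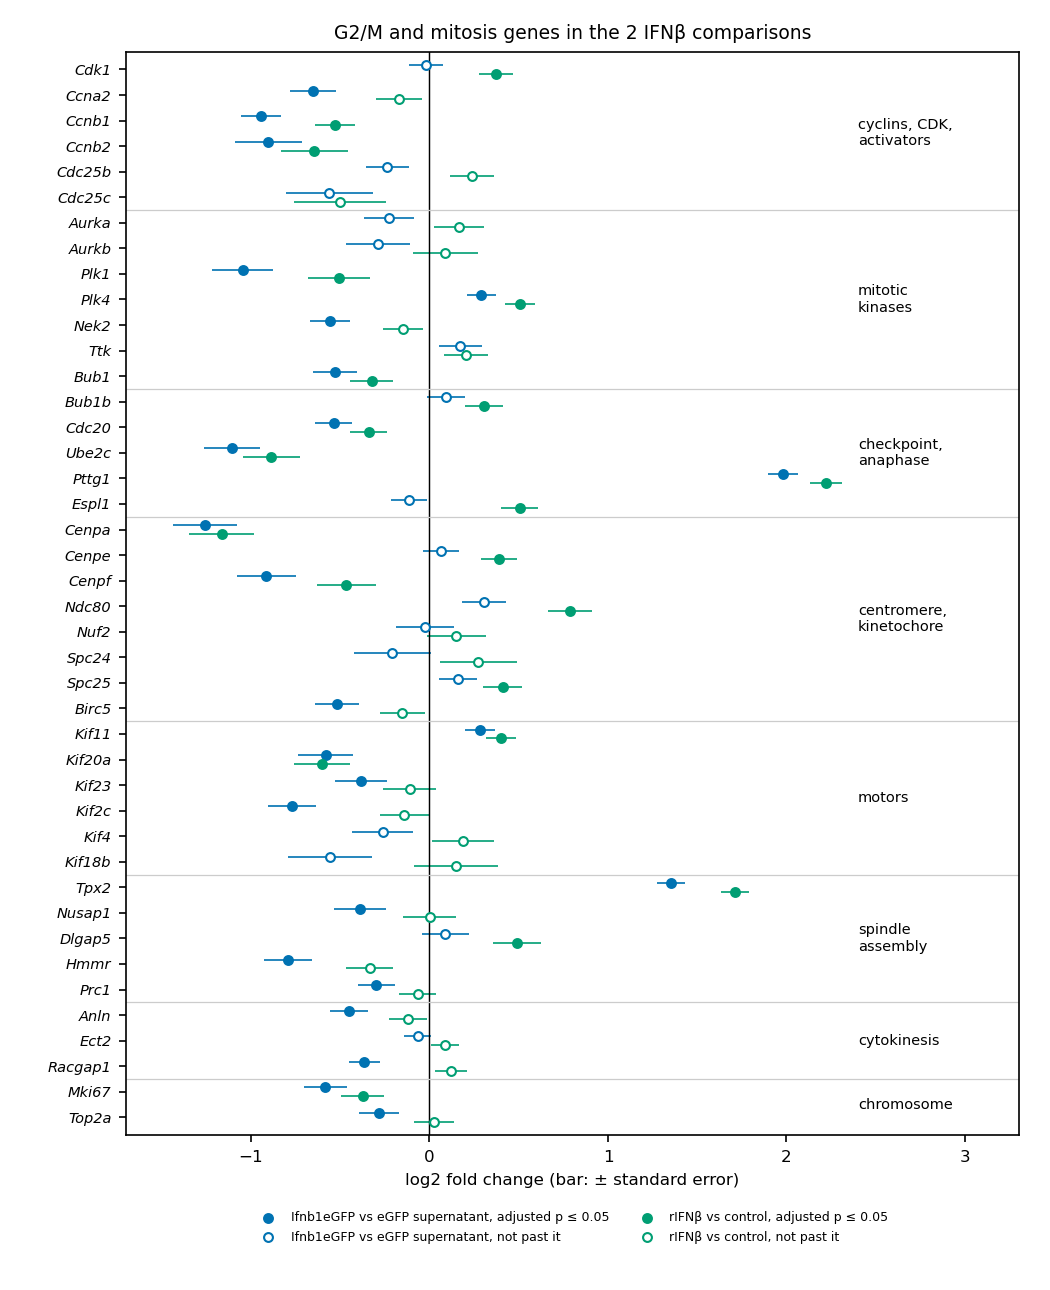
Log2 fold change with its standard error for each of the 42 genes, ordered by role, in Ifnb1eGFP against eGFP supernatant (blue) and rIFNβ against control (green), with filled points at an adjusted p of at most 0.05. Pttg1 and Tpx2 lie far to the right in both comparisons, and nearly every green point lies to the right of the blue point of the same gene.

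Among the cyclins, CDK1 and its activators, the B-type cyclins carried the clearest fall. Ccnb1, the main mitotic cyclin, had 8.07, 8.02 and 8.40 CPM in control, 8.79, 9.89 and 10.9 in eGFP supernatant, 5.08, 4.97 and 5.30 in Ifnb1eGFP supernatant and 4.81, 5.53 and 6.59 in rIFNβ. Every IFNβ library was below every library without IFNβ. Its log2 fold change was -0.94 ± 0.11 (SE) with Ifnb1eGFP supernatant (edgeR adjusted p = 2.26e-05) and -0.53 ± 0.11 with rIFNβ (edgeR adjusted p = 0.00177). Ccnb2, the second B-type cyclin, showed the same order of conditions, with 3.37, 4.45 and 4.80 CPM in control, 4.12, 4.65 and 5.90 in eGFP supernatant, 2.28, 2.76 and 2.80 in Ifnb1eGFP supernatant and 2.34, 2.43 and 3.31 in rIFNβ. It was 1.87-fold lower with Ifnb1eGFP supernatant and 1.56-fold lower with rIFNβ. Ccna2 encodes cyclin A, which partners CDK2 in S phase and CDK1 in G2. It had 9.12, 11.6 and 10.5 CPM in control, 11.5, 13.5 and 14.2 in eGFP supernatant, 8.09, 8.67 and 8.19 in Ifnb1eGFP supernatant and 7.48, 9.63 and 10.6 in rIFNβ. The supernatant groups were apart, with a log2 fold change of -0.65 ± 0.13 (edgeR adjusted p = 0.00124), and the rIFNβ and control libraries overlapped (-0.17 ± 0.13, edgeR adjusted p = 0.294).

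Cdk1 itself did not follow its cyclins. It had 19.8, 24.2 and 22.7 CPM in control, 25.1, 26.6 and 27.7 in eGFP supernatant, 24.1, 27.2 and 27.0 in Ifnb1eGFP supernatant and 25.1, 29.4 and 31.7 in rIFNβ. The supernatant groups overlapped, with a log2 fold change of -0.02 ± 0.10 (edgeR adjusted p = 0.891), while with rIFNβ it rose 1.29-fold over control (edgeR adjusted p = 0.00628). The phosphatase genes Cdc25b and Cdc25c passed in neither comparison. Cdc25b had 7.73, 10.6 and 9.72 CPM in control, 10.8, 13.5 and 12.7 in eGFP supernatant, 9.61, 10.7 and 11.1 in Ifnb1eGFP supernatant and 9.94, 11.3 and 11.9 in rIFNβ. Cdc25c was measured from few counts, with 0.517 to 1.68 CPM over the 12 libraries and 23 to 67 counts.

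The mitotic kinases divided by gene. Plk1, the Polo-like kinase that promotes entry and spindle formation, had 4.01, 4.39 and 4.31 CPM in control, 5.03, 5.43 and 4.92 in eGFP supernatant, 1.72, 2.76 and 2.95 in Ifnb1eGFP supernatant and 3.06, 2.59 and 3.31 in rIFNβ. It was below the libraries without IFNβ in all 6 IFNβ libraries, 2.06-fold lower with Ifnb1eGFP supernatant (edgeR adjusted p = 3.00e-04) and 1.42-fold lower with rIFNβ (edgeR adjusted p = 0.026). Plk4, the kinase that starts centriole duplication, moved the other way, with 5.72, 5.71 and 5.84 CPM in control, 5.46, 6.09 and 6.70 in eGFP supernatant, 7.59, 7.03 and 7.71 in Ifnb1eGFP supernatant and 7.80, 8.30 and 8.44 in rIFNβ. All 6 IFNβ libraries were above the other 6. Its rise was small, at 1.22-fold (edgeR adjusted p = 0.0105) and 1.42-fold (edgeR adjusted p = 0.000287), and 1246 of its 8146 exonic bases are shared with the opposite-strand gene Mfsd8, which had log2 fold changes of 0.47 in both comparisons. Bub1, a checkpoint kinase of the kinetochore, fell 1.44-fold and 1.25-fold. Nek2, a centrosome kinase, fell 1.47-fold with Ifnb1eGFP supernatant. The Aurora kinase genes Aurka and Aurkb and the checkpoint kinase gene Ttk passed in neither comparison, with log2 fold changes between -0.29 and 0.20.

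The largest rise of the 42 genes, in both comparisons, was that of the anaphase inhibitor Pttg1. The gene lies on chromosome 11 (GRCm39, 43311071 to 43321000, minus strand) and encodes securin, which holds separase inactive. It had 9.51, 9.45 and 8.45 CPM in control, 10.0, 10.4 and 10.1 in eGFP supernatant, 44.8, 37.1 and 38.4 in Ifnb1eGFP supernatant and 46.5, 41.1 and 40.1 in rIFNβ. The 6 IFNβ libraries lay far above the rest with no overlap, and eGFP supernatant replicate 2 was with its own group. The rise was 3.95-fold with Ifnb1eGFP supernatant (log2 fold change 1.98 ± 0.09, edgeR adjusted p = 6.65e-09) and 4.66-fold with rIFNβ (2.22 ± 0.09, edgeR adjusted p = 2.88e-09). With rIFNβ it was the only gene of the 42 past the thresholds in the study's methods, a log2 fold change of 2 or more in size at an adjusted p up to 0.01, which 5.77% of all genes passed. None of the 42 passed them with Ifnb1eGFP supernatant, where 5.39% of all genes did. Of the 2473 exonic bases of Pttg1, 220 overlap Slu7, a splicing factor gene on the opposite strand. Slu7 rose as well, from a mean of 57.9 to 127 CPM with Ifnb1eGFP supernatant and from 56.6 to 125 with rIFNβ (log2 fold change 1.14 in both). The strand setting of the counting is not given in the sources used here, and the part of Slu7 reads in the Pttg1 counts was not tested.

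The genes that act with securin moved by less and in different directions. Espl1, which encodes separase, had 4.01, 4.51 and 5.2 CPM in control, 5.76, 5.80 and 5.30 in eGFP supernatant, 4.68, 5.46 and 5.43 in Ifnb1eGFP supernatant and 6.44, 6.50 and 6.59 in rIFNβ. It rose 1.42-fold with rIFNβ over control (edgeR adjusted p = 0.00137) and did not pass between the supernatants (log2 fold change -0.11 ± 0.10, edgeR adjusted p = 0.369). Ube2c, the ubiquitin-conjugating enzyme that the anaphase-promoting complex uses to mark securin and cyclin B, had 4.51, 4.36 and 4.54 CPM in control, 4.85, 6.04 and 4.92 in eGFP supernatant, 2.60, 2.76 and 2.00 in Ifnb1eGFP supernatant and 1.96, 2.45 and 2.83 in rIFNβ. It was lower in every IFNβ library, 2.15-fold and 1.85-fold (edgeR adjusted p = 9.24e-05 and 0.000544). Cdc20, the activator of that complex, fell by less, 1.45-fold and 1.27-fold. Bub1b, which encodes the checkpoint protein BubR1, had 6.04, 7.46 and 5.89 CPM in control and 7.59, 7.40 and 8.94 in rIFNβ, and its call with rIFNβ (1.24-fold higher, edgeR adjusted p = 0.0315) came with overlapping groups.

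Genes of the centromere and kinetochore went in both directions. Cenpa, which encodes the histone H3 variant that marks centromeres, had the largest fall of the 42 genes. It had 14.1, 14.7 and 15.3 CPM in control, 17.3, 18.8 and 25.2 in eGFP supernatant, 6.60, 8.44 and 10.5 in Ifnb1eGFP supernatant and 5.61, 6.30 and 7.76 in rIFNβ. The groups were apart in both comparisons, at 2.39-fold lower with Ifnb1eGFP supernatant (log2 fold change -1.26 ± 0.18, edgeR adjusted p = 0.000101) and 2.24-fold lower with rIFNβ (-1.16 ± 0.18, edgeR adjusted p = 0.000225). Cenpf fell 1.88-fold and 1.38-fold. Birc5, which encodes survivin of the chromosomal passenger complex, fell 1.43-fold with Ifnb1eGFP supernatant and had a log2 fold change of -0.15 ± 0.13 with rIFNβ. Ndc80, the microtubule-binding subunit of the outer kinetochore, had 4.71, 6.06 and 5.02 CPM in control, 5.96, 6.65 and 6.58 in eGFP supernatant, 7.79, 7.85 and 8.08 in Ifnb1eGFP supernatant and 7.59, 9.02 and 10.6 in rIFNβ. All IFNβ libraries were above the others, yet the rise passed with rIFNβ (1.73-fold, edgeR adjusted p = 0.00022) and not with Ifnb1eGFP supernatant (1.24-fold, edgeR adjusted p = 0.0527). Spc25, of the same 4-protein complex, rose 1.33-fold with rIFNβ, and 3693 of its 7031 exonic bases are shared with the opposite-strand gene Nostrin, which had log2 fold changes of 0.89 and 0.93. Its complex partners Nuf2 and Spc24 passed in neither comparison, with 3.27 to 5.15 and 0.961 to 2.10 CPM. Cenpe, a kinetochore motor, rose 1.31-fold with rIFNβ.

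Of the 6 genes grouped as motors, 1 rose in either comparison, Kif11. It encodes the kinesin that pushes spindle poles apart and had 8.84, 9.57 and 8.33 CPM in control, 9.47, 9.75 and 10.6 in eGFP supernatant, 11.7, 11.5 and 13.2 in Ifnb1eGFP supernatant and 11.1, 11.5 and 12.6 in rIFNβ. The 6 IFNβ libraries were above the other 6, by 1.22-fold (edgeR adjusted p = 0.0127) and 1.32-fold (edgeR adjusted p = 0.00168). Kif20a, a motor of the central spindle, fell 1.50-fold and 1.52-fold, and 2748 of its 5019 exonic bases are shared with Cdc23 on the opposite strand, whose log2 fold changes were -0.07 and -0.06. Kif2c, which removes tubulin at kinetochores, and Kif23, a central spindle motor, fell 1.71-fold and 1.31-fold with Ifnb1eGFP supernatant and did not pass with rIFNβ (log2 fold changes -0.14 and -0.11). Kif4, a motor on chromosome arms, and Kif18b, which acts on astral microtubules, passed in neither.

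Tpx2 stood apart from the other spindle assembly factors. On chromosome 2 (GRCm39, 152689854 to 152737245, plus strand), it encodes the protein that activates Aurora A and seeds microtubules near chromosomes. It had 16.4, 18.9 and 17.4 CPM in control, 18.5, 20.1 and 20.4 in eGFP supernatant, 55.4, 46.9 and 48.4 in Ifnb1eGFP supernatant and 62.0, 55.4 and 55.2 in rIFNβ. No library without IFNβ came near an IFNβ library. The rise was 2.56-fold (log2 fold change 1.35 ± 0.08, edgeR adjusted p = 7.75e-08) and 3.28-fold (1.71 ± 0.08, edgeR adjusted p = 1.16e-08), and Tpx2 was not among the 11 genes whose exons overlap those of an opposite-strand gene with at least 500 counts. Hmmr, a spindle-pole protein that binds TPX2, fell 1.73-fold with Ifnb1eGFP supernatant (edgeR adjusted p = 0.00036) and had a log2 fold change of -0.34 ± 0.13 with rIFNβ (edgeR adjusted p = 0.0527). Nusap1 and Prc1, which bundle microtubules, fell 1.31-fold and 1.23-fold with Ifnb1eGFP supernatant. Dlgap5, which stabilizes kinetochore fibers, rose 1.41-fold with rIFNβ, from 5.75, 6.06 and 5.80 CPM to 6.73, 8.59 and 9.37.

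In cytokinesis, Anln and Racgap1 fell with Ifnb1eGFP supernatant, by 1.37-fold and 1.29-fold, and Ect2 passed in neither comparison. Anln encodes a scaffold of the contractile ring, and Racgap1 and Ect2 encode the proteins that place and activate RhoA there. The proliferation marker Mki67 had 31.8, 29.2 and 25.6 CPM in control, 26.4, 33.7 and 37.7 in eGFP supernatant, 22.1, 20.1 and 23.1 in Ifnb1eGFP supernatant and 21.1, 23.3 and 22.3 in rIFNβ. The IFNβ libraries were all below the others, with log2 fold changes of -0.58 ± 0.12 (edgeR adjusted p = 0.00156) and -0.37 ± 0.12 (edgeR adjusted p = 0.0209). Top2a, which untangles chromosomes before they separate, had 34.2, 43.6 and 36.8 CPM in control, 40.5, 47.5 and 47.3 in eGFP supernatant, 35.5, 35.2 and 40.5 in Ifnb1eGFP supernatant and 33.9, 39.3 and 43.3 in rIFNβ. Its fall of 1.22-fold between the supernatants was at the edge of the threshold (edgeR adjusted p = 0.0477) with groups that overlapped by a small margin, and rIFNβ and control overlapped as well.

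**Figure D3:**
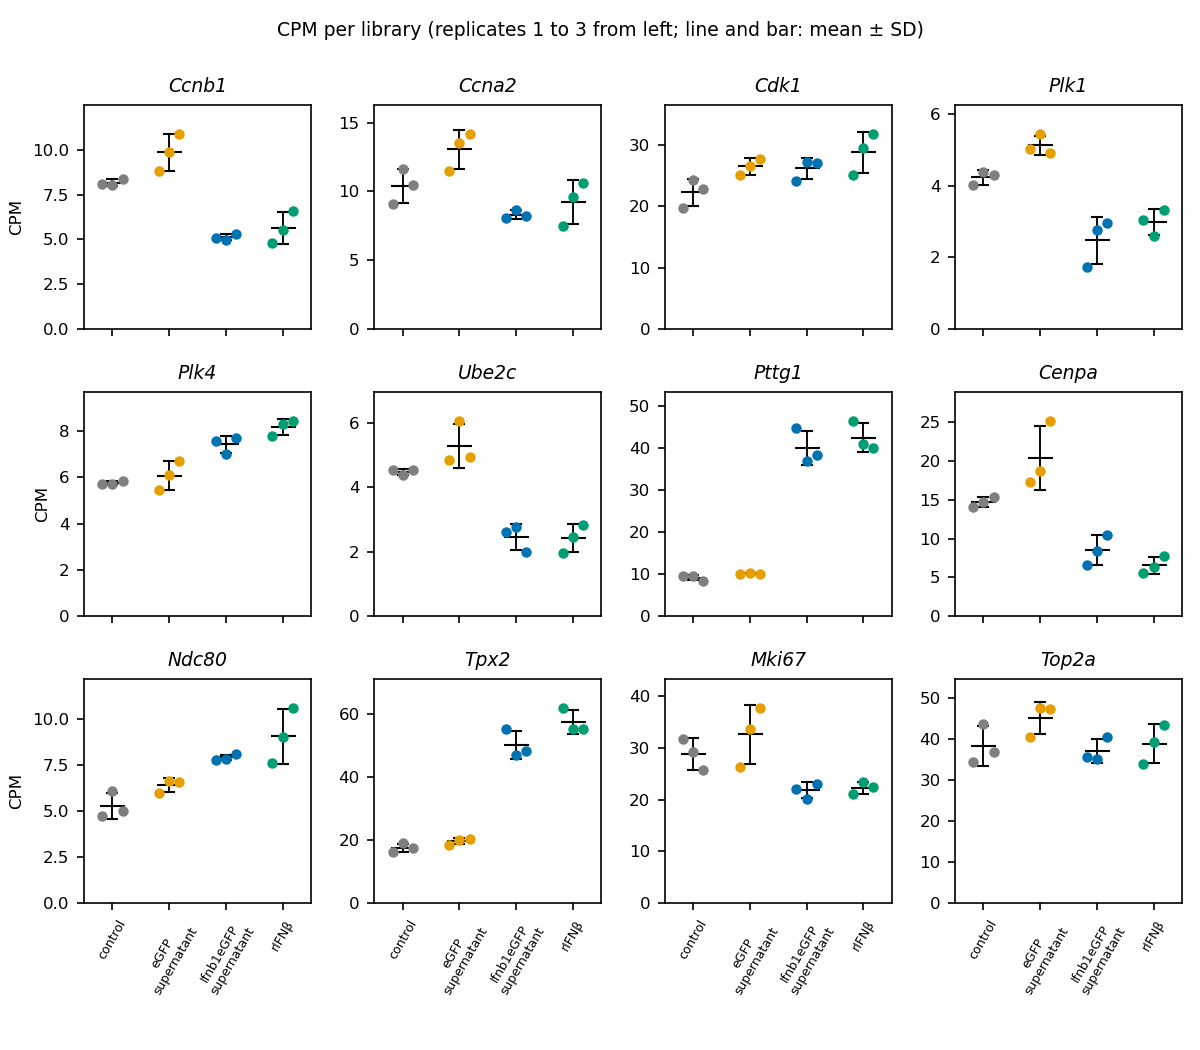
CPM in each of the 3 libraries per condition for 12 of the genes, on linear axes that start at 0, with the mean and SD in black. Ccnb1, Plk1, Ube2c, Cenpa and Mki67 are lower in every IFNβ library, Pttg1, Tpx2, Plk4 and Ndc80 are higher in every one, and the supernatant conditions of Cdk1 and Top2a overlap.

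Some calls depended on the setting. Of the 25 genes called with Ifnb1eGFP supernatant, 19 were called under every alternative fit at the same threshold and with any library left out, and the exceptions were Top2a, Kif11, Kif23, Plk4, Nusap1 and Prc1. Of the 21 called with rIFNβ, 14 were, and the exceptions were Mki67, Ccnb2, Bub1, Bub1b, Cenpf, Plk1 and Cdc20. Other genes were called under some settings alone. Between the supernatants these were Ndc80 and Kif18b in 2 of 6 other fits each, Spc25, Aurkb and Cdc25b in 1 of 6 each, and, with single libraries left out, Ndc80 in 3 of 12 fits and Kif18b, Cdc25c and Aurka in 1 of 12 each. With rIFNβ they were Hmmr, in 4 of 6 other fits and 6 of 12 with a library left out, and Cdc25b in 1 of 6. Ccna2, Plk1, Kif20a, Kif4 and Nusap1 had expected counts that were not whole in all 12 libraries, as RSEM gives where reads match more than 1 place.

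The 2 IFNβ effects were then compared with each other, because the fall was wider with Ifnb1eGFP supernatant. In edgeR's quasi-likelihood test of the difference (the interaction of IFNβ and supernatant) 0 of the 42 genes passed, with 0% of all genes tested, and DESeq2 gave 0 as well. At an unadjusted p under 0.05 there were 14 of 42, where 4.4% of all genes stood. The difference was below 0, a lower effect with supernatant, for 41 of the 42 genes and for 52.4% of all genes, with a median of -0.34 on the log2 scale that ran from -0.40 to -0.28 with any library left out. The smallest unadjusted p values were those of Espl1 (-0.62 ± 0.14, edgeR adjusted p = 0.816) and Racgap1 (-0.48 ± 0.13, edgeR adjusted p = 0.926). The 42 values come from the same 12 libraries and are not independent of each other.

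Direct comparisons of the conditions on each side gave 0 called genes too. For eGFP supernatant against control, edgeR's quasi-likelihood test called 0 of the 42 genes and DESeq2 0, with 0.299% of all genes called. At an unadjusted p under 0.05 there were 11 of 42, against 8% of all genes. The log2 fold change was above 0 for 41 of the 42 genes and for 51% of all genes, with a median of 0.23, and Ttk was the exception. Cdc25b had the smallest adjusted p (0.40 on the log2 scale, edgeR adjusted p = 0.322). The groups did not overlap for 13 genes higher in eGFP supernatant and 0 lower, against 7.96% and 7.52% of all genes. For Ifnb1eGFP supernatant against rIFNβ, edgeR's quasi-likelihood test called 0 of 42 and DESeq2 0, with 0.16% of all genes called, and 4 of 42 stood at an unadjusted p under 0.05, against 8.57% of all genes. The log2 fold change was below 0 for 36 of the 42 genes and for 50.7% of all genes, with a median of -0.11, and without rIFNβ replicate 3 it was below 0 for 28, with a median of -0.03. With any library left out the median ran from -0.16 to -0.03. These comparisons reuse the libraries of the IFNβ comparisons, and eGFP supernatant is the reference of one of them, so they are not separate evidence. The counts above 0 were 40 to 42 for eGFP supernatant against control with any library left out, and 41 without eGFP supernatant replicate 2.

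The spread within a condition also ran along the whole list. In eGFP supernatant, replicate 1 held the lowest of the 3 values for 39 of the 42 genes (92.9%), where 28.0% of all genes had their lowest value in that library. In rIFNβ, replicate 1 was lowest for 32 genes (76.2%, against 33.2% of all genes) and replicate 3 highest for 36 (85.7%, against 28.7%). In control, replicate 1 was lowest for 27 genes (64.3%, against 38.5%), and in Ifnb1eGFP supernatant it was lowest for 22 (52.4%, against 39.7%) and replicate 3 highest for 27 (64.3%, against 19.7%). What a replicate number stands for is not given in the sources used here. The G2/M and mitosis genes of a library thus tended to be high or low together. For Ccnb1 in rIFNβ the values ran from 4.81 to 6.59 CPM, with a mean of 5.64 ± 0.90 (SD, n = 3), and for Cenpa in eGFP supernatant from 17.3 to 25.2, with a mean of 20.4 ± 4.19 (SD, n = 3).

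Other genes of the same processes, taken from lists set up beside the 42, are given by the same counts. Of all genes tested, 30.1% rose and 25% fell with Ifnb1eGFP supernatant, and 30.7% rose and 24.6% fell with rIFNβ, and the counts of each list are to be read beside these shares. Spindle, motor and cytokinesis genes outside the 42 had 14 of 28 lower and 4 higher with Ifnb1eGFP supernatant, and 4 lower and 7 higher with rIFNβ. Aspm, a spindle-pole protein, went from 4.02 ± 0.32 to 1.83 ± 0.24 CPM (SD, n = 3) with Ifnb1eGFP supernatant and from 3.59 ± 0.45 to 1.85 ± 0.07 with rIFNβ (log2 fold changes -1.14 and -0.96), and Psrc1, which binds spindle microtubules, had log2 fold changes of -1.03 and -0.74. In the same list Arhgap11a rose by 0.33 and 0.39 on the log2 scale, and Kif24 by 0.60 and 0.71. Without eGFP supernatant replicate 2 the supernatant count of this list was 9 lower and 4 higher. In that fit 3327 of all 15320 genes tested fell and 4012 rose, and counts given without that library are to be read beside these.

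Kinetochore and centromere genes outside the 42 had 13 of 33 higher (39.4%) and 2 lower with Ifnb1eGFP supernatant and 21 higher (63.6%) and 1 lower with rIFNβ. Without eGFP supernatant replicate 2 the supernatant count was 12 higher and 1 lower. Spdl1, which brings dynein to kinetochores, rose by 0.89 and 1.06 on the log2 scale, and Mis18a, which prepares centromeres for new CENPA, by 0.66 and 0.70. Incenp fell in both, by 0.46 and 0.26, and Cdca8, like Incenp a part of the chromosomal passenger complex, fell by 0.37 between the supernatants and had -0.06 with rIFNβ. Of 21 checkpoint and anaphase-promoting complex genes, 7 rose (33.3%) and 5 fell (23.8%) with Ifnb1eGFP supernatant, near the 30.1% and 25% of all genes. With rIFNβ 8 rose and 4 fell. Without eGFP supernatant replicate 2 the supernatant count was 5 higher and 4 lower. Anapc5 had the clearest rise, from 97.8 ± 5.73 to 183 ± 7.43 CPM and from 94.1 ± 1.88 to 198 ± 2.83 (SD, n = 3), and Anapc10 rose by 0.46 and 0.42. Anapc2 fell by 0.27 and 0.17, and Ube2s, which extends the ubiquitin chains begun by UBE2C, fell by 0.31 and 0.30.

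Many condensin and cohesin genes rose, 13 of 20 with Ifnb1eGFP supernatant (10 without eGFP supernatant replicate 2) and 11 with rIFNβ. The condensin II subunit Ncapg2 went from 17.9 ± 0.91 to 51.7 ± 4.84 CPM and from 15.0 ± 0.33 to 39.3 ± 2.29 (SD, n = 3), and Smc2, the core of both condensins, rose by 0.52 and 0.59 on the log2 scale. DNA replication and S-phase genes rose almost throughout, 27 of 34 with Ifnb1eGFP supernatant (25 without eGFP supernatant replicate 2) and 29 with rIFNβ, and their median log2 fold changes were 0.64 and 0.73 beside -0.33 and 0.06 for the 42 G2/M and mitosis genes. Mcm6, a subunit of the replicative helicase, rose by 1.26 in both comparisons and Rfc3 by 1.07 and 1.27, while Pcna was the 1 that fell, by 0.32 and 0.32. The lists were not compared with each other by a test.

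**Figure D4:**
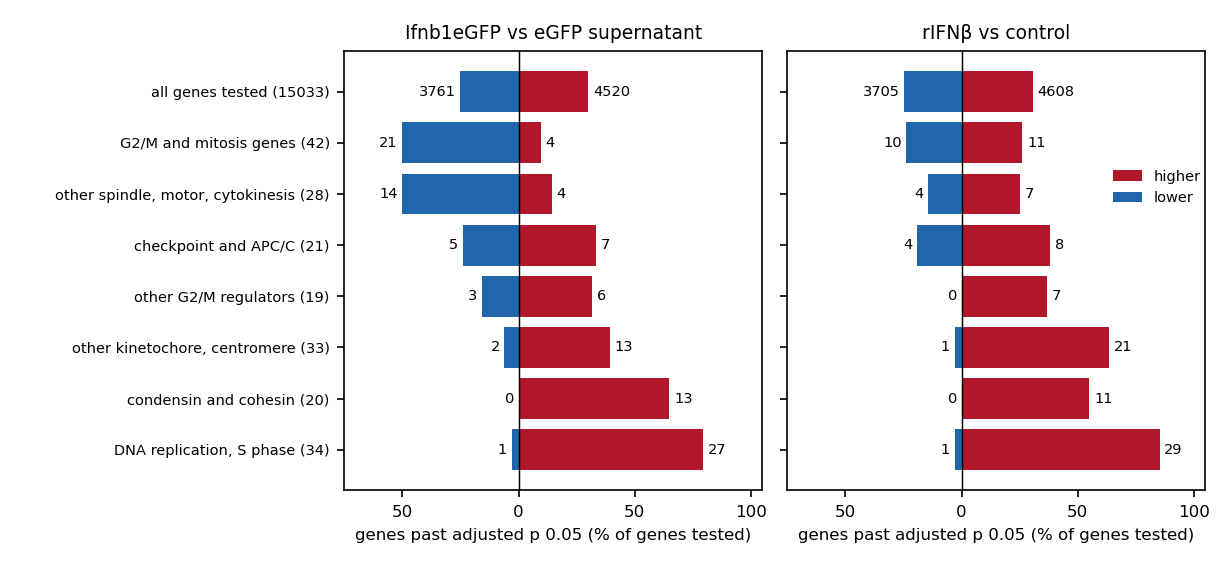
Share of each gene list past an adjusted p of 0.05, to the right for higher and to the left for lower, in Ifnb1eGFP against eGFP supernatant (left panel) and rIFNβ against control (right panel), with the number of genes tested in brackets and the number called beside each bar. The G2/M and mitosis genes (21 lower, 4 higher) and the other spindle genes (14 lower, 4 higher) extend left between the supernatants, and condensin, cohesin and S-phase genes extend right in both panels.

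The transcription factors of the late cell cycle gave a mixed picture. Foxm1 had 8.06 ± 0.77 CPM in control, 9.19 ± 1.94 in eGFP supernatant, 6.81 ± 1.71 in Ifnb1eGFP supernatant and 8.72 ± 0.74 in rIFNβ (SD, n = 3), and passed in neither comparison (edgeR adjusted p = 0.0731 and 0.639). Mybl2, which encodes B-MYB, passed with rIFNβ (log2 fold change 0.64, edgeR adjusted p = 0.0254) and not between the supernatants (0.40, edgeR adjusted p = 0.142). Of the MuvB subunits, Lin9 rose by 0.57 and 0.60 on the log2 scale and Lin54, which binds CHR elements, by 0.42 and 0.41. E2f8, a repressor of E2F targets, rose by 0.73 and 0.95. Of the 19 other regulators of G2/M transcription and entry, 6 rose (31.6%) and 3 fell (15.8%) with Ifnb1eGFP supernatant, beside 30.1% and 25% of all genes. Ccnf fell by 0.42 and Pbk by 0.44 there. With rIFNβ 7 rose (36.8%) and 0 fell, beside 30.7% and 24.6% of all genes. Without eGFP supernatant replicate 2, 5 rose and 3 fell between the supernatants.

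Among 13 G1 genes, 5 rose and 3 fell in each comparison, and among 27 inhibitors, pocket proteins and quiescence genes, 12 rose and 6 fell with Ifnb1eGFP supernatant, and 12 rose and 7 fell with rIFNβ. The 13 include Csf1r, the M-CSF receptor gene, which is also counted among the macrophage markers. Of all genes tested, 30.1% rose and 25% fell with Ifnb1eGFP supernatant and 30.7% rose and 24.6% fell with rIFNβ, and the counts of the G1 genes stood near these shares. Without eGFP supernatant replicate 2 the supernatant counts were 5 and 3 for the G1 genes and 11 and 6 for the inhibitors. Ccnd2 rose from 34.6 ± 3.60 to 130 ± 11.2 CPM and from 37.0 ± 3.84 to 140 ± 12.8 (SD, n = 3), Ccnd1 rose by 0.55 and 0.69 on the log2 scale and Ccne2 by 0.56 and 0.65. Myc, a driver of growth and cell cycle entry, fell by 1.44 and 1.34, and Cdk4 fell by 0.27 and 0.19. The pocket protein gene Rbl1, which encodes p107, rose by 1.12 and 1.20, and the inhibitor gene Cdkn2b and the antiproliferative gene Btg2 fell, by 2.48 and 2.61 and by 0.95 and 1.04. The CDK inhibitor genes Cdkn1a and Cdkn1b passed in neither comparison, and Cdkn1a had 539 ± 5.86, 547 ± 52.3, 554 ± 53.1 and 595 ± 63.9 CPM (SD, n = 3) in control, eGFP supernatant, Ifnb1eGFP supernatant and rIFNβ.

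Markers of other cells that can divide in bone marrow cultures were low, except stromal markers, of which all 8 passed the filter. Some of the markers moved with the conditions. The summed level of 10 progenitor markers was 8.02 to 10.8 CPM in control, 6.11 to 7.50 in eGFP supernatant, 2.01 to 5.76 in Ifnb1eGFP supernatant and 2.81 to 4.95 in rIFNβ, most of it Cd34. Of the 10, 3 passed the filter (Kit, Cd34 and Gata2). The log2 fold changes of these 3 ran from -2.50 to -0.47 with Ifnb1eGFP supernatant and from -1.68 to -0.45 with rIFNβ. The summed level of 8 neutrophil markers was 13.0 to 15.6 CPM in control, 17.1 to 21.2 in eGFP supernatant, 7.20 to 11.5 in Ifnb1eGFP supernatant and 4.61 to 5.93 in rIFNβ, most of it Mmp8. Of the 8, 2 passed the filter, with log2 fold changes of -3.35 and -0.71 with Ifnb1eGFP supernatant and of -4.16 and -0.92 with rIFNβ. Both sums were lowest in the IFNβ conditions, where many of the 42 genes fell, and their part in the fall was not tested. The defining markers of dividing granulocyte precursors were at or near 0, with at most 10 counts of Mpo, 1 of Elane, 4 of Prtn3 and 3 of Ctsg in any library. Erythroid markers summed to 0.544 to 1.62 CPM and melanocyte markers to at most 0.810 CPM. Mast cell markers summed to at most 1.14 CPM and lymphocyte markers to 4.55 to 6.19 CPM without IFNβ and 9.25 to 10.9 with it. Most of the lymphocyte sum was Cd4, and 3 of the 12 markers passed the filter. Their log2 fold changes ran from -7.44 to 1.11 with Ifnb1eGFP supernatant and from -4.07 to 1.00 with rIFNβ. Stromal markers summed to 32.3 to 86.9 CPM, with 37.6 to 86.9 in control, 32.3 to 72.7 in eGFP supernatant, 59.8 to 84.1 in Ifnb1eGFP supernatant and 53.5 to 80.0 in rIFNβ. These ranges overlap, but of the 8 stromal markers 4 rose and 1 fell with Ifnb1eGFP supernatant (30.1% and 25% of all genes). With rIFNβ 3 rose and 2 fell (30.7% and 24.6% of all genes). Without eGFP supernatant replicate 2 the supernatant count was 4 higher and 2 lower. The log2 fold changes of these markers ran from -1.08 to 1.80, and their part in the results was not tested.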

How the data were processed

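Bulk RNA sequencing was deposited as 1 matrix of expected counts, which the authors made with RSEM 1.3.3. The counts are not normalized, and 12.0% of values are not whole and were rounded here. The methods name the genome as GRCm39 and mm10, so positions were taken from GENCODE M39 (GRCm39) by gene ID. edgeR 4.0.16 (R 4.3.3) was fitted to all 12 libraries with filterByExpr, TMM scaling and the quasi-likelihood test, adjusted by Benjamini-Hochberg across 15033 genes and calls at an adjusted p of at most 0.05. Standard errors were derived from the fold change and its F statistic. The script was tested on simulated data. Alternatives were DESeq2 1.42.0, other scaling, no filter, a replicate block, fits of the compared conditions alone, the study's thresholds and leaving out each library. The 42 genes and all other lists were chosen with earlier results of these data known, so their counts are set beside those of all genes and no list was tested. Named genes outside the 42 were the 2 with the smallest p for a rise and the 2 for a fall among those called between the supernatants in each list, plus Foxm1, Mybl2, Lin9, Lin54, Cdkn1a, Cdkn1b, Ccnd1 and Myc.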

Additional observations from a re-analysis of the deposited data

How the results depend on the processing

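No called gene changed sign under any alternative. The median over the 42 genes with rIFNβ (0.06) was -0.02 without control replicate 1 and -0.04 without rIFNβ replicate 3. Some genes that were not called changed sign with single libraries left out. Between the supernatants these were Cdk1 (-0.05 to 0.02), Cenpe (-0.08 to 0.16), Nuf2 (-0.12 to 0.07) and Dlgap5 (-0.03 to 0.17). With rIFNβ they were Top2a, Aurkb, Kif23, Nusap1 and Prc1. Between the supernatants, 2 genes rose without the filter on low counts, and 0 rose and 0 fell at the study's thresholds. With rIFNβ, 1 rose and 0 fell at those thresholds. With single libraries left out, the supernatant counts were 3 to 5 higher and 17 to 22 lower, the rIFNβ counts 10 to 11 higher and 5 to 11 lower, and the other comparisons 0. Over all genes those fits gave 4012 to 4520 higher and 3299 to 4248 lower between the supernatants. With rIFNβ they gave 4094 to 4892 higher and 3288 to 4348 lower. DESeq2 gave 4 higher and 21 lower, and 10 higher and 11 lower. Of 30334 genes it called 4048 higher and 3942 lower between the supernatants, and 4050 and 3967 with rIFNβ. With the replicate number as a block, 6 rose and 24 fell between the supernatants, 12 rose and 11 fell with rIFNβ, and 1, Cdc25b, rose in eGFP supernatant against control. Among all 15033 genes the block gave 4848 higher and 4019 lower between the supernatants and 4931 and 3915 with rIFNβ. For eGFP supernatant against control it gave 89 higher and 33 lower. Under the block Cdc25b was called lower between the supernatants (-0.24 on the log2 scale, edgeR adjusted p = 0.0114) and higher with rIFNβ (0.24, edgeR adjusted p = 0.011), opposite directions that the fit without the block does not call. Same-numbered libraries had deviations with a mean correlation of 0.148 (0.0582 to 0.252 over 18 pairs, 13 above 0.1), against -0.0742 over 36 pairs with different numbers. The pairing was not taken as part of the design because the sources used here do not say what a number stands for. All 12 libraries correlated best with their own number, a hint from the data and not the design. The causes were not tested. Depth limits the precision for genes such as Cdc25c, with 23 to 67 counts.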
